A study of Capra hircus with 72 samples.

Results

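PITX3, ASCC1, BAG2, PKDCC and ENPP5 were examined in muscle of goats that had been transported or held in pens. These 5 genes were chosen by their higher expression after 180 min of transport, and they are 5 of the 6561 genes that any muscle table lists and of the 7558 listed in any table of the series. The study used intact male Spanish goats (Capra hircus), 8 months old, fed on pasture with grain and kept off feed overnight. Transported goats travelled in a livestock trailer for 180 min or for 30 min, and control goats were held in pens, all in near-freezing weather over a pair of days and all slaughtered afterwards. RNA-seq of muscle was deposited as a pair of sets, marked 24H and 6D in the tables, each with 9 libraries of 180 min, 9 of 30 min and 9 of control goats. The labels do not define these marks, which serve here as names only.

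The 5 genes belong to different cellular systems. PITX3 is a paired-like homeodomain transcription factor, best known from the lens and from midbrain dopamine neurons, and in the mouse it is also expressed in differentiating skeletal muscle. ASCC1 is a KH-domain subunit of the activating signal cointegrator complex, which in human cells takes part in transcription, in repair of alkylated DNA through the ASCC3 helicase and in splitting of stalled ribosomes. BAG2 is a co-chaperone that releases nucleotide from HSP70 and inhibits the chaperone-linked ubiquitin ligase STUB1, so it favours refolding over degradation of clients. PKDCC, also called VLK, is a secreted tyrosine kinase that phosphorylates proteins of the secretory pathway and the extracellular matrix, and in the mouse it is needed for bone growth. ENPP5 is a membrane protein of the ectonucleotide pyrophosphatase and phosphodiesterase family, whose better-known members cleave extracellular nucleotides.

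The muscle libraries held 9.45 to 19.6 M counts (M for 1e+06), with a median of 14.1 M. Each deposited table compares 1 transported group with the controls of its set and lists only genes with an unadjusted p under 0.05, so every listed gene had been selected on that comparison. As a check of the tissue, 6 general fibre markers that the 24H table at 30 min lists, such as CKM and NEB, were summed. They reached 57395 FPKM or more in every 30 min and control library of that set. The check covers neither the 180 min libraries of the 24H set nor the 6D set. PITX3, ASCC1, BAG2 and PKDCC are in all 4 muscle tables, ENPP5 is in both 6D tables and neither 24H table, and 0 of the 5 are in the blood tables. A gene that a table does not list has no value there, and nothing about its level in blood or in the 24H set follows from that. Library 9 of the muscle controls is titled control, while its treatment field names 180 min of transport; it was kept as a control. No label assigns a day or a goat to a library, so p-values measure the spread between libraries.

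PITX3 (ENSCHIG00000005050) is listed on chromosome 26 at 28794557 to 28805442 and ASCC1 (ENSCHIG00000020844) on chromosome 28 at 17331878 to 17445938. BAG2 (ENSCHIG00000016736) lies on chromosome 23 at 45658314 to 45667362 and ENPP5 (ENSCHIG00000018749) on the same chromosome at 29468112 to 29478681. PKDCC (ENSCHIG00000011323) is on chromosome 11 at 24352326 to 24364366. All 5 are on the plus strand, and no source used here names the genome build of these coordinates. In the RefSeq annotation of the goat assembly ARS1.2, ELOVL3 overlaps PITX3, and ANAPC16 and the pseudogene LOC102180189 overlap ASCC1. No source used here says whether reads were counted by strand, so the counts of PITX3 and ASCC1 may include reads of these genes, none of which a muscle table lists.

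Scaled to gene length, BAG2 was the most abundant of the 5 transcripts. In the 24H set it averaged 345 ± 110 FPKM (fragments per kilobase of gene and per M counts) at 180 min and 121 ± 44.1 FPKM in controls (SD, n = 9 each). PKDCC came next at 74.4 ± 32.8 FPKM at 180 min and 28.6 ± 6.84 FPKM in controls. This order depends on the listed lengths, 636 bases for BAG2 and 4711 for PKDCC. In counts per M, not scaled to length, the 24H medians of PKDCC and BAG2 were 319 and 212 at 180 min. In controls they were 135 and 63.2. PITX3 had 47.1 ± 16.2 FPKM at 180 min and 10.9 ± 7.83 FPKM in controls. ASCC1 had 60.7 ± 46.6 FPKM at 180 min and 11.9 ± 7.14 FPKM in controls, so PITX3 and ASCC1 lay within each other's spread in both groups. The same order held for the control means of the 6D set except that ASCC1, at 6.75 ± 2.68 FPKM, was below PITX3, at 11.6 ± 6.46 FPKM. ENPP5 was the rarest, at 1.79 ± 0.73 FPKM at 180 min and 0.61 ± 0.23 FPKM in controls of the 6D set, where its raw counts ran from 17 to 127 and from 7 to 32 per library.

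The 180 min values below are those that chose the genes, so they are described without a test. Levels are normalized counts, that is, gene counts that the authors divided by 1 size factor per library. Differences are of mean log2(normalized count + 1), transported minus control, with the SE from both groups' spread. Muscle is a mixture of fibres and other cells, so a higher level per cell and a larger share of the cells that express a gene cannot be told apart.

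PITX3, the transcription factor of the group, had 377 to 1393 normalized counts in the 180 min libraries of the 24H set (median 944), against 50.5 to 443 in controls (median 204). Its difference was 2.43 ± 0.43 on the log2 scale, and 8 of 9 transported libraries lay above the highest control. In the 6D set it had 188 to 1329 counts at 180 min (median 773), against 62.0 to 348 in controls (median 215), a difference of 2.05 ± 0.41. Again 8 of 9 transported libraries were above every control, and library 15 was the lowest of the 180 min group in both sets. Controls were themselves spread widely, with a coefficient of variation of 71.4% in the 24H set and 54.9% in the 6D set.

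ASCC1, the cointegrator subunit, was the member with the widest spread among transported goats. In the 24H set it had 402 to 3549.9 normalized counts at 180 min (median 1135), against 144 to 712 in controls (median 228), a log2 difference of 2.15 ± 0.48. Libraries 12, 16 and 18 stood at 3238 or more, while 10, 11 and 13 lay below the highest control. Its range in the 6D set was 156 to 2072 counts at 180 min (median 1139.7), against 65.2 to 279.8 in controls (median 145), a difference of 2.23 ± 0.48. Libraries 10 and 13 were again the lowest of the transported group, and 7 of 9 exceeded the highest control.

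BAG2, the HSP70 co-chaperone, had 1586 to 4977 normalized counts in the 24H libraries of 180 min (median 2939), against 671 to 1853 in controls (median 899). The log2 difference was 1.57 ± 0.25, with 8 of 9 transported libraries above every control and library 15 the exception. Its values in the 6D set were 452 to 2636 at 180 min (median 1769), against 304 to 933 in controls (median 578), a difference of 1.50 ± 0.33. Libraries 10 and 15 fell within the control range there, and the other 7 lay above it.

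PKDCC, the secreted kinase, had 2304 to 10084 normalized counts at 180 min in the 24H set (median 4810.5), against 1190.02 to 2965 in controls (median 1867), a log2 difference of 1.34 ± 0.25. Libraries 13 and 15 stayed within the control range and library 12 was the highest. It had, in the 6D set, 1249.9 to 7009 counts at 180 min (median 3622), against 1204 to 1959.8 in controls (median 1582), a difference of 1.14 ± 0.27. There 8 of 9 transported libraries exceeded every control, and the exception was library 15. Its controls were the most uniform of the 5 genes, with a coefficient of variation of 16.4% in the 6D set.

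ENPP5, listed in the 6D set only, had 20.5 to 79.6 normalized counts at 180 min (median 52.0), against 8.45 to 24.9 in controls (median 19.5). The log2 difference was 1.49 ± 0.29, with 8 of 9 transported libraries above every control. Here the lowest transported library was 14, at 20.5, while library 15 stood at 58.3, above all controls.

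**Figure D1:**
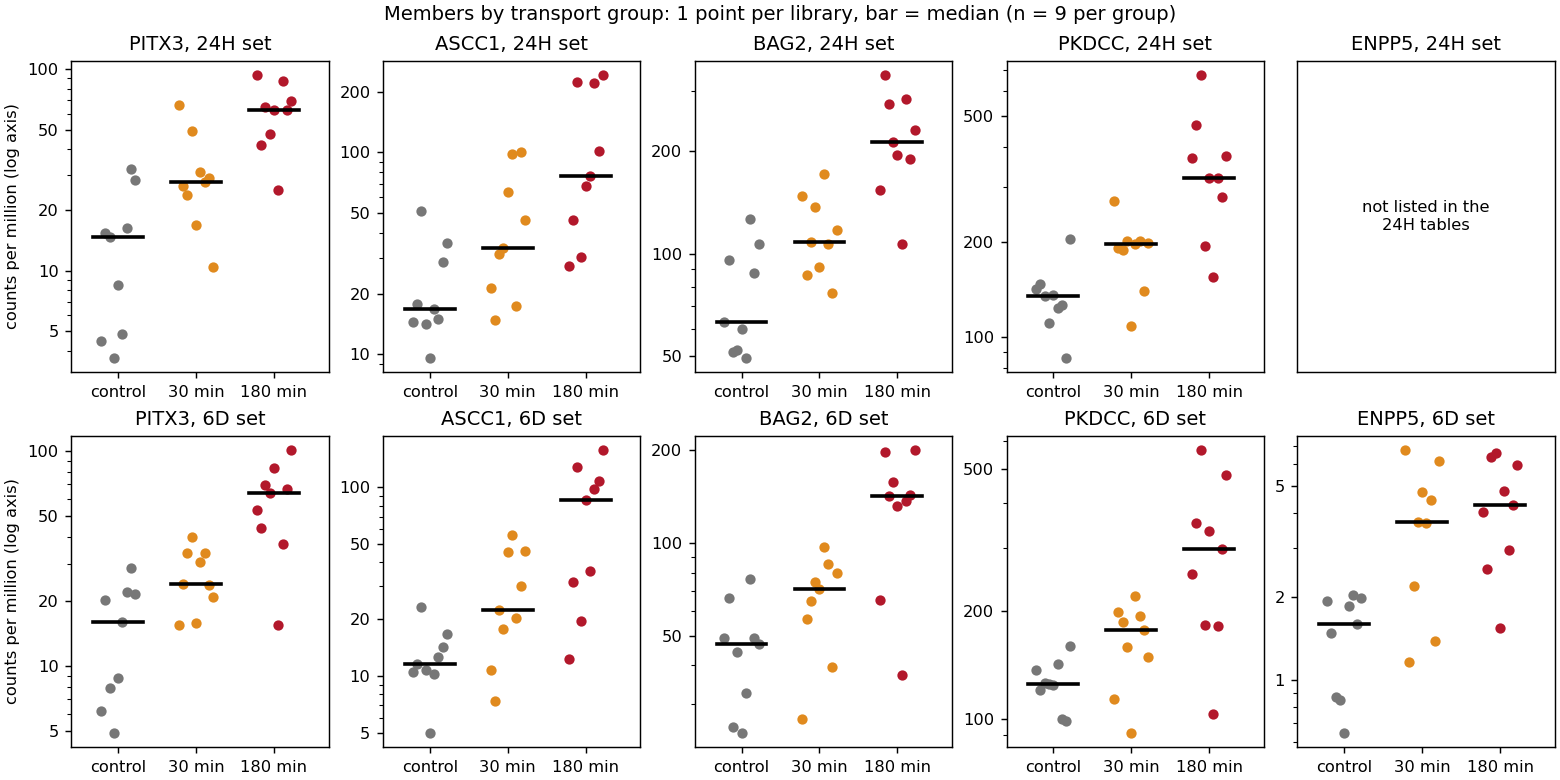
Counts per M of the library total (log axis) of each gene in every muscle library, by transport group and set; each point is 1 library and the bar is the median of 9. The 180 min points lie highest for PITX3, ASCC1, BAG2 and PKDCC, with medians of 62.9, 76.1, 212 and 319 in the 24H set, while the 30 min and 180 min points of ENPP5 largely coincide.

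The following ranks give the members' place in the authors' deposited tables. Of 1961 genes listed in the 24H set, 149 (7.6%) were higher with an adjusted p under 0.05, and 62 of the 1618 listed in the 6D set (3.83%) were. Since this contrast chose the members, their place among those genes supports nothing. By p-value BAG2, PKDCC, PITX3 and ASCC1 were 2nd, 4th, 7th and 8th of all genes in the authors' deposited 24H table. By the authors' log2 fold change, ranked among the 149 only, they were 27th, 33rd, 16th and 10th. In the authors' deposited 6D table ASCC1, PITX3, BAG2, ENPP5 and PKDCC were 2nd, 4th, 5th, 7th and 9th by p-value and 4th, 10th, 12th, 13th and 19th of the 62 by fold change. The adjusted p-values in the authors' deposited tables ran from 2.49e-07 (BAG2) to 7.65e-06 (ASCC1) in the 24H set and from 8.39e-08 (ASCC1) to 0.000241 (PKDCC) in the 6D set.

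Genes next to the members in that order were of like size. In the authors' deposited 24H table ASCC1, at a log2 fold change of 2.41, came just below FKBP5 at 2.50, a co-chaperone of the glucocorticoid receptor. PKDCC, at 1.43, came just above FAM20A at 1.39, a pseudokinase of the secretory pathway. In the authors' deposited 6D table PKDCC, at 1.30, stood between CCDC138 at 1.37 and CDKN1A at 1.29, the cell cycle inhibitor.

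The 30 min libraries were not used to find the 180 min differences, but they are compared with the same controls, and the members had also passed the authors' selection at an unadjusted p under 0.05. PITX3 had 151 to 966 normalized counts at 30 min in the 24H set (median 415), against 55.4 to 478 in controls (median 225). ASCC1 had 222 to 1546 counts at 30 min (median 527), against 157 to 787 in controls (median 252). The transported and control ranges overlapped for both genes, with 2 and 3 of 9 transported libraries above the highest control. BAG2 had 1184 to 2618 counts at 30 min (median 1598), against 742 to 2007 in controls (median 982). PKDCC had 1578 to 3933 counts at 30 min (median 2871), against 1285 to 3191.0 in controls (median 2063). These ranges overlapped as well, although 9 of 9 BAG2 and 8 of 9 PKDCC values at 30 min were above the control median.

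In limma fitted to all 4125 genes of the 24H table, with Benjamini-Hochberg adjustment within the table, 4 of the 4 listed members passed at 0.05. They were among 1657 higher genes that passed (40.2% of the listed genes), and 1538 listed genes passed as lower. Only 2023 of the 4125 genes were listed higher, so most genes listed in the members' direction passed. Every listed gene had been selected at an unadjusted p under 0.05 on this comparison, so adjustment within the table makes passing easier. The count is read against a table in which passing was common, and the adjusted p-values below are not an independent test. The log2 difference, 30 min minus control, was 1.26 ± 0.41 for PITX3 (limma SE, n = 9 each, limma adjusted p = 0.024). For ASCC1 it was 0.89 ± 0.37 (limma adjusted p = 0.0398). It was 0.57 ± 0.20 for BAG2 (limma adjusted p = 0.027) and 0.43 ± 0.16 for PKDCC (limma adjusted p = 0.033). Of the 4125 genes, 781 (18.9%) were higher with an adjusted p under 0.05 in the authors' deposited table, and 0 of the 4 members were among them, at adjusted p from 0.0682 (PKDCC) to 0.0753 (ASCC1). When limma was adjusted over the 12649 genes the authors had adjusted, an alternative added after the data were seen, 0 of 4 passed. All 4 had an unadjusted p under 0.05, and 11 of the 4125 listed genes passed as higher in that setting. Adjusted within the table, edgeR and DESeq2 passed all 4. Of the 4125 genes edgeR passed 1670 as higher and 1730 as lower, and DESeq2 1872 and 1933, so passing there was common. Without control library 7, limma adjusted within the table passed 2 of 4. ASCC1 no longer passed without 30 min library 21, 23, 24, 26 or 27 or control library 1, 2, 4, 5, 6 or 7, and PKDCC without 30 min library 19 or 20 or control library 7.

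In the 6D set 0 of the 5 members passed limma within the table of 1252 genes at 30 min. Only 1 listed gene was higher and passed limma (0.0799%), and 2 were higher with an adjusted p under 0.05 in the authors' deposited table (0.16%), so the table held few calls for any gene. ENPP5 had 14.99 to 78.8 normalized counts at 30 min (median 49.9), against 8.84 to 26.1 in controls (median 20.5). With 7 of 9 transported libraries above the highest control, ENPP5 had the largest 30 min difference of the 5 in this set, 1.18 ± 0.34 (limma SE, limma adjusted p = 0.076). PITX3 had 181 to 502 counts at 30 min (median 318), against 65.2 to 366 in controls (median 224), a difference of 0.93 ± 0.32 (limma adjusted p = 0.076). ASCC1 had 94.6 to 754 counts at 30 min (median 294), against 68.2 to 296 in controls (median 152), a difference of 0.95 ± 0.35 (limma adjusted p = 0.076). BAG2 and PKDCC differed by 0.50 ± 0.26 and 0.33 ± 0.18 (limma adjusted p = 0.0899 and 0.0979). At an unadjusted p under 0.05, limma had 3 of the 5, namely ENPP5, PITX3 and ASCC1. DESeq2's Wald test passed the same 3 after adjustment within the table, and the edgeR quasi-likelihood test passed 0. Of all 1252 listed genes DESeq2 passed 273 as higher and 312 as lower, so its passes were common in this table. The edgeR test passed 1 listed gene as higher.

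**Figure D2:**
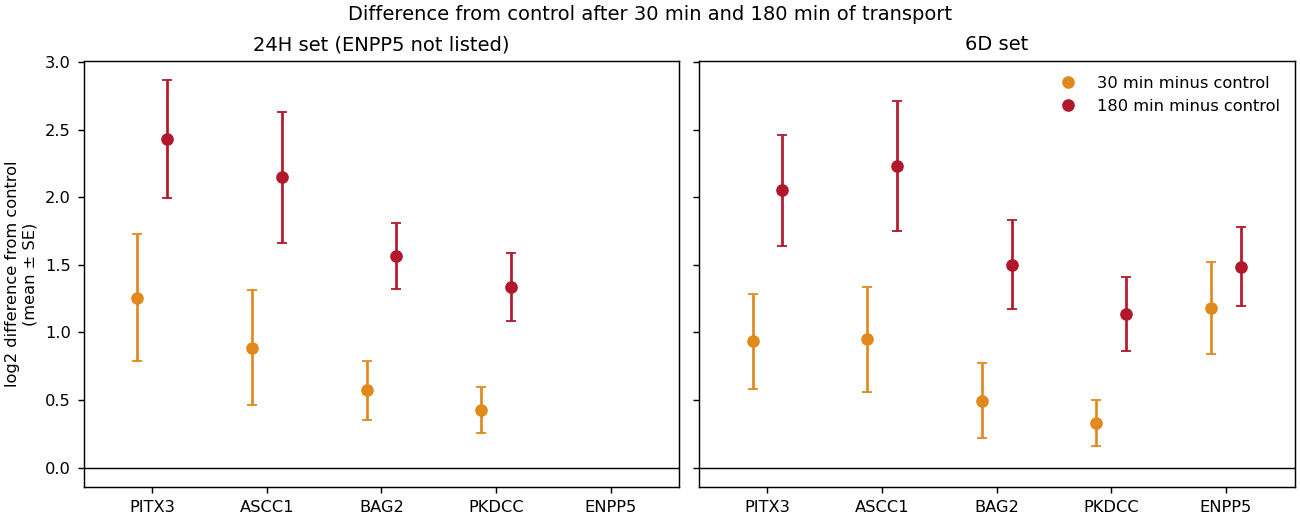
Difference of mean log2(normalized count + 1) from control after 30 min and 180 min of transport, with the SE from the spread of both groups (n = 9 each). For PITX3, ASCC1, BAG2 and PKDCC the 30 min difference lies below the 180 min difference in both sets, while for ENPP5 they are 1.18 and 1.49.

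Set side by side on 1 scale, counts per M of the library total (CPM), the medians increased in the order control, 30 min and 180 min for each gene in each set that lists it. These comparisons share their controls, and the 180 min libraries chose the genes, so the order is a description. PITX3 had medians of 14.7, 27.7 and 62.9 CPM in the 24H set, with 3 of 9 libraries of 180 min above the highest 30 min library, and 16.1, 24.2 and 63.9 CPM in the 6D set. ASCC1 had 16.8, 33.7 and 76.1 CPM in the 24H set, with 4 of 9 above that library, and 11.6, 22.4 and 86.0 CPM in the 6D set. BAG2 had 63.2, 108 and 212 CPM in the 24H set, where 7 of 9 libraries of 180 min exceeded the highest 30 min library. PKDCC had 135, 197 and 319 CPM in that set, with the same count of 7 of 9. ENPP5 had 1.60, 3.73 and 4.27 CPM in the 6D set, with 0 of 9 libraries of 180 min above the highest 30 min library. Its log2(CPM + 0.5) was above control by 1.02 at 30 min and by 1.25 at 180 min.

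Libraries of both muscle sets carry the same numbers, which allowed each gene's level to be compared between sets within a group. Whether a number marks 1 goat is not stated in the labels. Over the listed genes each 180 min library of one set resembled its own number best in 9 of 9 cases, and control libraries in 8 of 9. The 30 min libraries did so in only 4 of 9, so a shared number tells less there. Of 12 correlations of log2(normalized count + 1) between the sets, within a group of 9 numbers, 5 passed an exact two-sided permutation test of Pearson's r after Benjamini-Hochberg adjustment.

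The level of ASCC1 was related between the sets in all 3 groups. Pearson's r was 0.91 at 180 min (exact permutation, adjusted p = 0.0032; Spearman's rho 0.95, adjusted p = 0.0042). It was 0.83 at 30 min (exact permutation, adjusted p = 0.017; rho 0.82, adjusted p = 0.026) and 0.90 in controls (exact permutation, adjusted p = 0.00093; rho 0.88, adjusted p = 0.012). Without the 2 libraries farthest from the median of the 24H values, ASCC1's r was 0.87, 0.86 and 0.81 (exact permutation, unadjusted p = 0.012, 0.017 and 0.049). Adjusted over the 12 correlations in that setting, these p-values were 0.105, 0.105 and 0.190. Across the genes listed in both sets the median r was 0.59 at 180 min (709 genes), 0.40 at 30 min (647 genes) and 0.49 in controls (709 genes), a description, since genes share their libraries.

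BAG2 and PKDCC correlated between the sets at 180 min, with r of 0.84 (exact permutation, adjusted p = 0.0103; rho 0.77, adjusted p = 0.043) and 0.85 (exact permutation, adjusted p = 0.011; rho 0.83, adjusted p = 0.025). Without the 2 farthest libraries r was 0.57 and 0.63 (exact permutation, unadjusted p = 0.163 and 0.118), so neither passed over the 7 libraries left, which span a narrower range. In controls r was 0.74 for BAG2 (exact permutation, adjusted p = 0.0503; rho 0.72, adjusted p = 0.063) and 0.61 for PKDCC (exact permutation, adjusted p = 0.115; rho 0.45, adjusted p = 0.306). Whether r differed between groups was not tested. PITX3 had r of 0.61 at 180 min and 0.75 in controls (exact permutation, adjusted p = 0.115 and 0.0503). Its rho in controls was 0.92 (exact permutation, adjusted p = 0.0079). At 30 min r was 0.13 for PITX3, 0.16 for BAG2 and 0.25 for PKDCC, none of which passed.

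**Figure D3:**
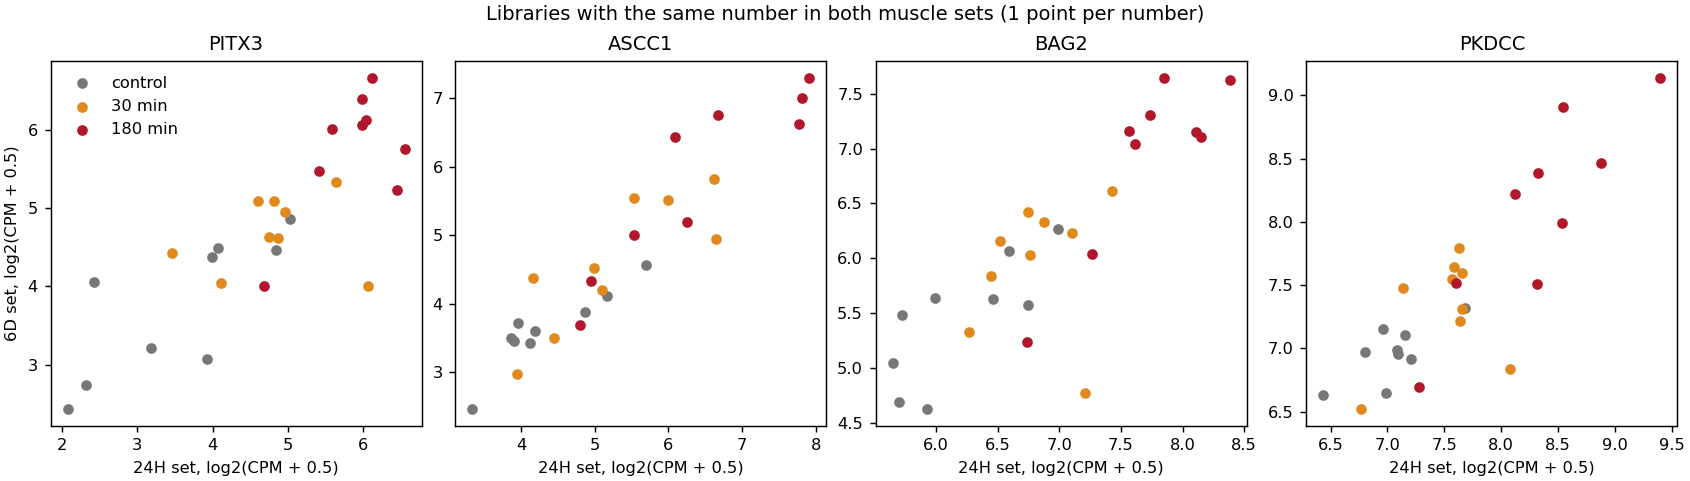
Level of 4 genes as log2(CPM + 0.5) in the 24H set (x axis) and the 6D set (y axis), 1 point per library number, coloured by transport group. The points of ASCC1 follow a diagonal within each group, while those of PITX3, BAG2 and PKDCC scatter more at 30 min.

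The 180 min libraries did not rank alike for all genes. Library 15 was the lowest of the 9 in 6 of the 9 combinations of gene and set. In the 6D set its BAG2 and PKDCC were below the control mean, by log2 values of -0.25 and -0.32, while its ASCC1 was above it by 1.56 and its ENPP5 by 1.71. Its library totals were 13.6 M counts in the 24H set and 10.2 M in the 6D set, the lowest of the 180 min group in that set. Libraries 12 and 18 were each among the 3 highest in 7 of 9 combinations. Library 10 had the highest PITX3 of the 24H set, 3.15 above the control mean, and low ASCC1, 0.54 above it in the 24H set and 0.07 in the 6D set.

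**Figure D4:**
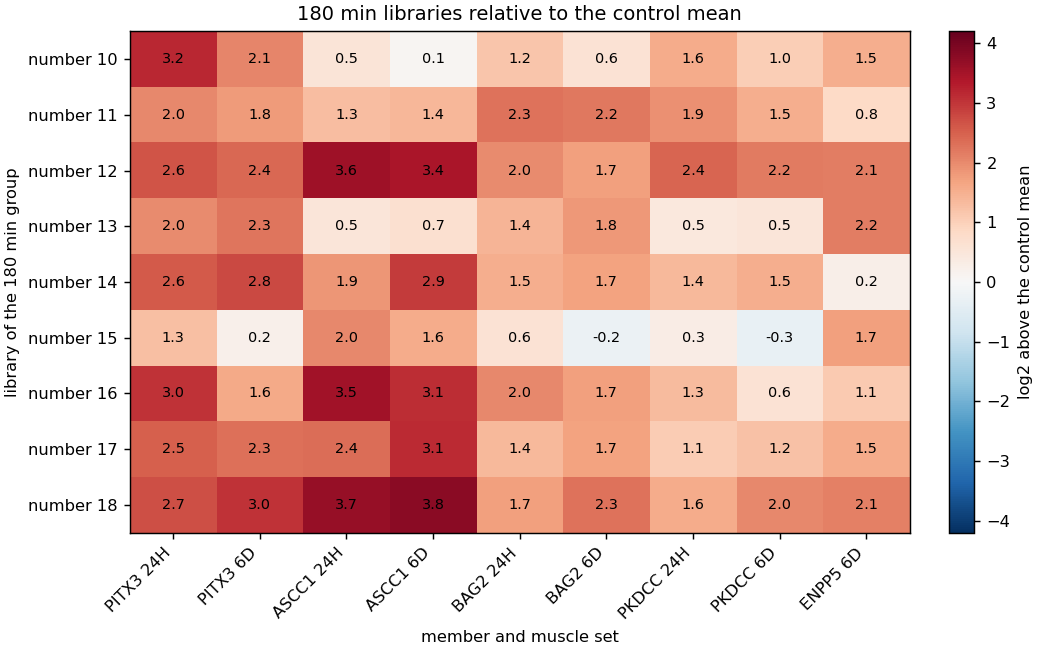
log2(normalized count + 1) of each 180 min library minus the control mean, for each gene and set; rows are library numbers and colour gives the value printed in the cell. Library 15 is lowest for PITX3, BAG2 and PKDCC in both sets, and libraries 10 and 13 are lowest for ASCC1.

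Members were also compared with each other within a group. Of 48 correlations between pairs of members (within a set and group, n = 9), computed after the data were seen, 39 were positive and 0 passed the exact permutation test after Benjamini-Hochberg adjustment. The highest was PITX3 with PKDCC at 180 min in the 6D set (r = 0.82, exact permutation, adjusted p = 0.285). BAG2 and PKDCC had r of 0.72 in the 24H set and 0.70 in the 6D set at 180 min, and PITX3 and BAG2 had 0.75 in the 6D set. At 180 min the median r over pairs was 0.39 in the 24H set and 0.43 in the 6D set. The median r of a member with all listed genes lay between -0.02 and 0.04 in these groups, and the median absolute r between 0.22 and 0.42. The 4 pairs with ENPP5 had r from -0.07 to 0.02 at 180 min.

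The listed genes most like each member were taken as the highest of many correlations. Likeness was Pearson's r over the 18 libraries of a 180 min table after group means were subtracted, among 1128 genes of the 24H set and 860 of the 6D set with at least 50 normalized counts on average. The points share their libraries and library depth, and no p is given. For ASCC1 the closest genes were RAP1A, a small GTPase, in the 24H set (r = 0.67) and PANK1, a pantothenate kinase of coenzyme A synthesis, in the 6D set (r = 0.78). SLC5A6, the transporter of biotin and pantothenate, was among the 3 closest to ASCC1 in both sets (r = 0.66 and 0.71). Within the 180 min group alone SLC5A6 had r of 0.85 and 0.86 with ASCC1, and within controls 0.06 and 0.19. RAP1A had 0.86 within the 180 min group and 0.21 within controls. For BAG2 they were ASB11, a SOCS-box protein of muscle (r = 0.81), and CDC5L, a splicing factor (r = 0.87). PKDCC was closest to NEURL4 in the 24H set (r = 0.79) and to SLC16A3, a lactate transporter of glycolytic fibres, in the 6D set (r = 0.83, with 0.90 within the 180 min group and 0.40 within controls). PITX3 was closest to SAE1, a subunit of the SUMO-activating enzyme, in the 24H set (r = 0.75) and to ZNF593 in the 6D set (r = 0.70). ENPP5 was closest to NIFK, a nucleolar protein (r = 0.62). Within the 180 min group and within controls, r was 0.47 and 0.90 for PITX3 with SAE1 and 0.89 and 0.53 with ZNF593. It was 0.83 and 0.81 for BAG2 with ASB11 and 0.92 and 0.80 with CDC5L. PKDCC with NEURL4 had 0.82 and 0.79, ASCC1 with PANK1 0.84 and 0.47, and ENPP5 with NIFK 0.63 and 0.63. Whether r differed between these groups was not tested.

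Genes that work with the members were taken from partner lists, and most of them were not listed. Counts and medians are those of the authors' deposited tables, where called means an adjusted p under 0.05. Of 39 HSP70 co-chaperones and quality control genes, the partners of BAG2, 6 were in the 24H table at 180 min, 5 higher and 1 lower, with 0 called. Their median log2 fold change was 0.48 in the authors' deposited table. All 1961 listed genes had a median of -0.30, and 954 of them were higher. Among the 1323 with at least 50 normalized counts on average the limma median was 0.25, so the comparison depends on the genes kept. Of the same list 4 were in the 6D table and all 4 were higher, with 2 called. Of all 1618 genes listed there, 738 were higher, and 3.83% were called higher. HSF2, a heat shock transcription factor, was at 0.67 (adjusted p = 0.0048 in the authors' deposited table) and BAG5, another BAG-domain co-chaperone, at 0.48 (adjusted p = 0.0069). In normalized counts HSF2 averaged 205 ± 40.5 at 180 min and 128 ± 28.1 in controls, and BAG5 218 ± 28.1 at 180 min and 155 ± 20.4 in controls (SD, n = 9 each). At 30 min 2 of the 39 were listed in the 24H set, 1 in each direction and neither called, and 0 were listed in the 6D set.

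Of 15 genes around the cointegrator complex and ribosome quality control, 3 were listed at 180 min in the 24H set and 1 in the 6D set, all higher. Among all listed genes 954 of 1961 were higher in the 24H set and 738 of 1618 in the 6D set. The shares called higher were 7.6% and 3.83%. In the authors' deposited tables ZNF598, a ubiquitin ligase that marks collided ribosomes, was called in the 24H set (log2 fold change 0.47, adjusted p = 0.014). PELO, a ribosome rescue factor, was called in the 6D set (0.49, adjusted p = 0.033). Neither 180 min table lists the other complex subunits ASCC2, ASCC3 and TRIP4. ASCC3 is in the 6D table at 30 min, at a log2 fold change of 0.42 (adjusted p = 0.673 in the authors' deposited table). At 30 min in the 24H set 4 of the 15 were listed, 3 higher and 1 lower. Of these LTN1, a ligase that tags nascent chains on split ribosomes, was called (0.85, adjusted p = 0.028 in the authors' deposited table).

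Of 15 PITX family genes and myogenic regulators, 2 were listed at 180 min in the 24H set, 1 higher and 1 lower, and 1 was listed higher in the 6D set. Among all genes listed at 180 min, 7.6% were called higher in the 24H set and 3.83% in the 6D set. The other PITX genes of the list were in no muscle table. MYF6, a myogenic transcription factor of mature fibres, was called higher at 180 min in the 24H set (log2 fold change 1.01, adjusted p = 0.0051 in the authors' deposited table). It averaged 6332 ± 2569 normalized counts at 180 min and 3145 ± 1032 in controls (SD, n = 9 each). Its log2 fold change in the 6D set was 1.12 (adjusted p = 0.0599 in the authors' deposited table). There MYF6 was among the 3 genes most like PKDCC, with r of 0.89 within the 180 min group and -0.26 within controls. Whether these values of r differ was not tested. At 30 min in the 24H set 3 of the 15 were listed, 2 higher and 1 lower. MEF2A and SIX4, further muscle transcription factors, were called higher (1.03 and 0.72 in the authors' deposited table), where 18.9% of the listed genes were. PAX7 was lower at -0.46 and not called.

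Of 20 secretory pathway kinases and related genes, FAM20A was called higher at 180 min in the 24H set, at 35.3 ± 12.4 normalized counts in transported goats and 13.4 ± 6.37 in controls (adjusted p = 0.0016 in the authors' deposited table). GLI3 was listed lower there and was not called, and the 6D table at 180 min lists 0 of the 20. Of 17 genes around nucleotide pyrophosphatases and adenosine, 4 were listed at 180 min in the 24H set and 3 in the 6D set, all lower, with 1 called in the 24H set. That was SLC29A1, a nucleoside transporter, at -0.73 (adjusted p = 0.047 in the authors' deposited table). Of all 1961 genes listed there, 1007 were lower and 6.78% were called lower, and in the 6D set 880 of 1618 were lower. At 30 min in the 24H set 5 of the 17 were listed, 3 higher and 2 lower. ADA alone was called among them, lower at -0.70 (adjusted p = 0.042 in the authors' deposited table). ENPP4, the gene next to ENPP5, is in 1 muscle table, that of 30 min in the 24H set, at 0.37 (adjusted p = 0.077 in the authors' deposited table).

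Markers of fibre type and of other cells differed beside these genes in the 24H set. All 6 slow fibre markers were listed lower at 180 min, with MYH7, the slow myosin heavy chain, called; of all 1961 genes listed there, 133 (6.78%) were called lower. Their summed level was 12331 to 34914 FPKM at 180 min (median 21486) and 19002 to 64629.7 FPKM in controls (median 35397). Of 9 endothelial and mural markers 4 were listed, all lower and 0 called, at a sum of 10.7 to 31.1 FPKM at 180 min and 18.7 to 49.8 FPKM in controls. Of 6 macrophage and leukocyte markers CD163 was listed and called higher in the authors' deposited table, at 0.325 to 1.77 FPKM at 180 min and 0.118 to 0.945 FPKM in controls. In the authors' deposited 6D table CD163 was at a log2 fold change of 0.94 and was not called. Of 5 adipocyte markers CIDEC was listed higher in the 24H set and ADIPOQ lower in the 6D set, neither called. At 30 min in the 24H set 5 of 6 slow fibre and 5 of 9 endothelial markers were listed, all lower, with 2 and 4 called, in a table where 747 of 4125 genes (18.1%) were called lower. Of the 12 general fibre markers 6 were listed there, 2 higher and 4 lower. In the authors' deposited table MB, the myoglobin gene, at -0.53 and TNNI2, a fast troponin, at -0.46 were called lower, and NEB, the nebulin gene, at 0.67 was called higher. The macrophage marker CD68 was called lower at 30 min in the 24H set, at -0.87 in the authors' deposited table, where CD163 was at 0.76 and not called. At 30 min in the 6D set CD68 was listed lower and not called, and 0 slow fibre markers and 1 endothelial marker (ROBO4, lower, not called) were listed. In the 6D set at 180 min 0 slow fibre markers and 1 endothelial marker (TIE1, lower, not called) were listed, and the log2 differences of PITX3, ASCC1, BAG2 and PKDCC at 180 min were 2.05, 2.23, 1.50 and 1.14 there. The part of cell makeup in the members' differences was not tested. Satellite cell, fibroblast and nerve markers were in neither 180 min table, of 12 general fibre markers MYH2 alone was listed at 180 min (24H set, higher, not called), and red cell SLC4A1 had a median of 0 FPKM at 180 min.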

How the data were processed

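RNA-seq libraries of goat blood and muscle were analysed from the 6 tables the authors deposited. Per the labels' protocols, blood RNA came from a stabilized-blood kit, muscle RNA from a fibrous tissue kit, and libraries from the NEBNext Ultra kit. No source used here names the aligner, counter, build, annotation or strand setting. Per the file headers the tables hold raw counts, all whole. The normalized counts are a signal the authors made by dividing counts by 1 size factor per library and table, as the values show. The FPKM values the authors deposited are counts scaled by listed length and library total, from which totals were recovered. The authors also deposited a log2 fold change, a p-value and an adjusted p-value per gene, made with a tool that no source used here names.

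The members and gene lists were chosen with earlier results of these data known. Groups follow the titles. The 30 min tables were fitted with limma 3.58.1 (trend, R 4.3.3) on log2(normalized count + 1), Benjamini-Hochberg adjusted within the table at 0.05; because each table was selected on the same comparison, this is not an independent test. The added 1 understates changes of low genes such as ENPP5. Alternatives were other pseudocounts (0.5 and 5), a mean of at least 50 normalized counts, TMM, library totals, edgeR 4.0.16, DESeq2 1.42.0 and each library left out. Fits were also run on simulated data without the selection on p, which cannot show whether adjusted p-values within these tables hold. Correlations used exact permutations (Python 3.11.15, scipy 1.17.1). Named genes were all members, the 3 most alike genes per member and table, neighbours in rank, and partner list genes; the text gives a selection of these. Blood depth was 10.4 to 39.5 M counts (M for 1e+06), and depth limits mainly ENPP5.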

Additional observations from a re-analysis of the deposited data

How the results depend on the processing

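No paired analysis was possible because the groups within a table share no library numbers; numbers recur only between the muscle sets. The 180 min differences kept their direction in all 216 alternative values, which leave out DESeq2 and the mean of at least 50 normalized counts. That contrast chose the members, so the kept direction supports nothing. Without control library 9 the differences ran from 1.18 (PKDCC, 6D set) to 2.60 (PITX3, 24H set). At 30 min the 24H count of 4 members past limma was 0 when adjusted over the authors' number of genes, 2 without control library 7 and 2 to 4 over all left-out libraries. The 6D count of 0 was 3 with the DESeq2 Wald test, which passed 273 of the 1252 listed genes as higher. It was 0 with each library left out. The 5 of 12 correlations between sets became 8 with log2(FPKM + 0.1) and 0 after adjustment without the 2 libraries farthest from the median. In that setting r reversed to -0.050 for PITX3 at 180 min, -0.42 for BAG2 at 30 min, -0.031 for PKDCC at 30 min and -0.19 for PKDCC in controls. That setting keeps 7 libraries per group; for the other changes the cause was not tested. No member is listed in blood, so the alternatives planned there gave no value. Counting error weighs most on ENPP5, with 7 to 127 raw counts per library.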
